A study of Mus musculus with 27 samples.

Results

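Livers lacking the histone deacetylase HDAC3 (HDAC3 LKO) were compared directly with livers lacking the sterol sensor SCAP (SCAP LKO), using 4 RNA-seq libraries of each, 8 of the 27 samples of the series and of its 17 RNA libraries. The members were taken by their labels alone: HDAC3-floxed mice and SCAP-floxed mice, all of strain C57Bl/6 and fed ad libitum, each given adeno-associated virus of serotype 8 carrying Cre recombinase, which cuts out the floxed gene, with livers taken 10 days later. Both sides carried the same virus and Cre, so an effect of Cre common to both lines cancels in the comparison. The 2 floxed alleles sit in different mouse lines, however, and a difference between the lines does not cancel. As reference, 6 livers given the same virus with GFP were used, 2 each from HDAC3-floxed, SCAP-floxed and HDAC3/SCAP-floxed mice. Where a knockout is set against these pooled controls, neither an effect of Cre nor a difference between the lines cancels. The labels give neither age nor sex and do not state that each library is 1 mouse, and the spread behind the p-values may therefore be partly technical. RNA came from whole liver, where fewer cells of a type and less RNA per cell cannot be told apart.

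HDAC3 is the catalytic subunit of the NCoR and SMRT corepressor complexes, which nuclear receptors such as REV-ERB recruit to silence genes, and livers without it are known to accumulate fat. SCAP carries the SREBP transcription factors from the endoplasmic reticulum to the Golgi, where proteases release their active form. SREBP2 mainly drives cholesterol synthesis and uptake, and SREBP1c mainly drives fatty acid synthesis, so both programmes depend on SCAP in hepatocytes.

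The targeted genes separated the groups in opposite directions. Hdac3 was at 10.6, 7.46, 9.75 and 10.6 CPM (counts scaled to a common library size) in the HDAC3 LKO libraries and at 41.6, 39.4, 38.4 and 36.4 in the SCAP LKO libraries, against 34.3 to 40.7 in the GFP controls. Scap was at 128, 150, 150 and 142 CPM in HDAC3 LKO and at 52.3, 59, 43.9 and 50.3 in SCAP LKO. Each targeted gene was lower in every library of its own knockout than in every library of the other. The log2 fold change of HDAC3 LKO over SCAP LKO was -2.02 for Hdac3 (SE 0.11, adjusted p = 5.63e-10) and 1.48 for Scap (SE 0.12, adjusted p = 7.81e-08).

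Library totals ran from 5158695 to 8672408 counts in HDAC3 LKO and from 3546597 to 7788828 in SCAP LKO. On the first principal component of the 8 libraries, which held 45.9% of the variance, the HDAC3 LKO libraries lay between -30.4 and -23.6 and the SCAP LKO libraries between 24.3 and 26.6. HDAC3 LKO replicate 2 lay at one end of the second component (25.6, with 13% of the variance), and SCAP LKO replicate 4 stood apart in acute phase and inflammatory genes, such as Lcn2. Summed hepatocyte markers ran from 125000 to 149000 CPM in HDAC3 LKO and from 121000 to 156000 in SCAP LKO, so the tissue matched its label. Alb, at means of 90400 and 99200 CPM, made up most of that sum. Lymphocyte markers summed to at most 8.39 CPM in any of the 8 libraries, neutrophil markers to at most 2.67 and the 6 adipocyte and muscle markers to at most 0.272. None of the 17 tested macrophage, 11 stellate cell or 4 cholangiocyte markers was called by edgeR's quasi-likelihood test (adjusted p under 0.05). An unadjusted p under that value was found for 2, 1 and 1, and DESeq2 and limma called none. Over all tested genes 14.7% were called, so no call among 4 markers is near that share. Of 10 tested hepatocyte markers 2, Apoa1 and Ass1, were higher in HDAC3 LKO and 1, Serpina1a, was lower. No hepatocyte marker was called at 2-fold or more, and none was called relative to the GFP controls of each line. Summed macrophage markers were at 479 to 627 CPM in HDAC3 LKO and 473 to 741 in SCAP LKO. Of 12 tested endothelial markers 1, Lyve1, was called, more than 2-fold higher in HDAC3 LKO. Its level there was 35.8 CPM in replicate 2 and 17 to 19.1 in the other libraries. Relative to the GFP controls of each line the Lyve1 call was lost (1.23, adjusted p = 0.0922). Summed endothelial markers were at 660 to 824 CPM in HDAC3 LKO and 598 to 764 in SCAP LKO.

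In all, 1761 of 12009 tested genes were called between the knockouts, 14.7% of those tested. The level in HDAC3 LKO exceeded that in SCAP LKO for 1023 of them (8.52%) and lay under it for 738 (6.15%), with a difference of at least 2-fold for 278 of the former and 98 of the latter, together 3.13%. Among the called genes, all 4 HDAC3 LKO libraries lay above all 4 SCAP LKO libraries for 939 and below them for 640, where over all tested genes the shares were 11.5% and 9.72%, together 21.3%. The count of lower genes fell to 485 without HDAC3 LKO replicate 4. When each knockout was instead taken relative to the 2 GFP controls of its own line, 309 genes were called. These were 2.57% of those tested (1.92% higher and 0.658% lower). The sign was kept by 1752 of the 1761 genes, which is largely built in, since the same knockout libraries enter both comparisons.

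Sterol synthesis genes made up the most uniform group: nearly every tested enzyme from acetyl-CoA to cholesterol was higher in HDAC3 LKO than in SCAP LKO. Of 10 tested genes on the way from acetyl-CoA to squalene epoxide, 9 were higher, with a median log2 fold change over the 10 of 2.04. Of 10 genes that act on the sterol ring afterwards, all 10 were higher, with a median of 1.81. The median of all tested genes was -0.02.

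Fdps, which makes farnesyl diphosphate, was at 44.1, 32.9, 34.4 and 42.1 CPM in HDAC3 LKO and at 1.94, 3.54, 2.69 and 2.55 in SCAP LKO. The lowest HDAC3 LKO library was far above the highest SCAP LKO library, and HDAC3 LKO lay at the level of the GFP controls (34.5, 35.6 and 46.8 CPM as lowest, median and highest). Its log2 fold change was 3.85 (SE 0.17, adjusted p = 1.57e-11). Idi1, the isopentenyl diphosphate isomerase, was at 10.1, 8.66, 11.2 and 10.8 CPM in HDAC3 LKO against 0.484, 0.544, 0.128 and 0.764 in SCAP LKO (log2 fold change 4.38, adjusted p = 1.26e-08). Sqle, the squalene epoxidase, was at 59.4, 56.9, 70.1 and 54.9 CPM against 1.45, 0.816, 1.67 and 5.47 (4.48, adjusted p = 8.43e-07). In both genes the groups were well apart, and SCAP LKO replicate 4 was the highest of the SCAP LKO libraries.

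Smaller differences within the first branch were found for the acetyl-CoA thiolase Acat2 (log2 fold change 1.26), the squalene synthase Fdft1 (1.31), the mevalonate kinase Mvk (1.64), the phosphomevalonate kinase Pmvk (2.44) and the decarboxylase Mvd (2.91). The 1 tested member that was not called was Ggps1, which diverts farnesyl diphosphate to geranylgeranyl diphosphate and away from sterols. It was at 6.8 to 10.6 CPM in HDAC3 LKO and 8.16 to 12.7 in SCAP LKO, with overlapping groups and a log2 fold change of -0.32 (adjusted p = 0.239). Hmgcs1, the synthase ahead of mevalonate, had at most 1.22 CPM in any of the 8 libraries in this table and was not tested.

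After squalene the range ran from Ebp, a sterol isomerase (log2 fold change 0.55, adjusted p = 0.00622), to Nsdhl and Sc4mol, which strip methyl groups from the ring (both 3.29). Sc4mol was at 155, 106, 145 and 146 CPM in HDAC3 LKO and at 13.1, 16, 14.6 and 13 in SCAP LKO. Cyp51, the lanosterol demethylase, was at 180, 125, 180 and 189 CPM against 22.3, 24.2, 19.9 and 25.8 (log2 fold change 2.87, adjusted p = 8.29e-10), and its lowest HDAC3 LKO library was replicate 2. The others were Lss (1.54), Dhcr7 (1.77), Tm7sf2 (1.95), Sc5d (1.13) and Hsd17b7 (0.99). Only Ebp and Hsd17b7 among these 10 missed the threshold when each knockout was taken relative to its own line's controls (adjusted p = 0.3 and 0.112).

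Set beside the GFP controls, which both comparisons share, the sterol genes differed mainly on the SCAP side. In SCAP LKO 9 of the first 10 genes and all 10 of the second lay below GFP (1.19% of all tested genes were called in that comparison), with medians of -2.31 and -1.94. In HDAC3 LKO 1 of the first 10 lay below GFP, namely Mvk (-0.57), and of the second 10, 3 lay below (Lss -0.39, Dhcr7 -0.49 and Sc4mol -0.44) and 1 above, where 13.9% of all tested genes were called.

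**Figure D1:**
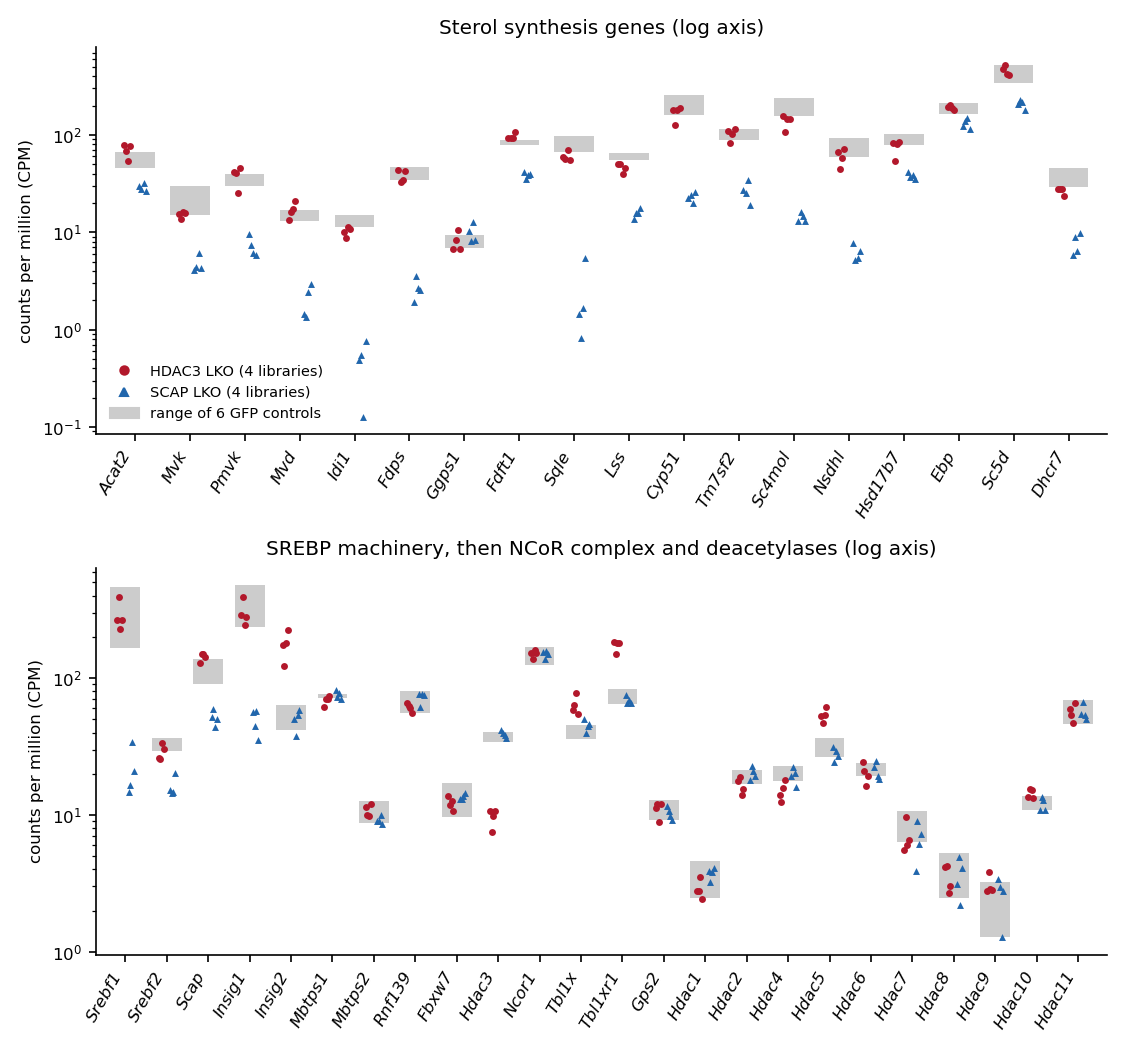
CPM per library on a log axis for 18 sterol synthesis genes (top) and for the SREBP machinery followed by the NCoR complex and deacetylases (bottom), with HDAC3 LKO as circles, SCAP LKO as triangles and the range of the 6 GFP controls as grey boxes. Circles of most sterol genes lie in or near the grey boxes and triangles lie below, as for Fdps (1.94 to 3.54 CPM in SCAP LKO), while Hdac3 shows the opposite order.

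Sequence upstream of the sterol genes is shown for Cyp51 and Insig1, and for 2 genes set at a higher level in HDAC3 LKO than in control livers, Arntl and Plin2, which are described further on. The windows are RefSeq promoters of build GRCm38.p6, from 250 bases before to 50 after an annotated start. Capitals mark any of 4 motifs searched on both strands. They are CCAAT (the box bound by NF-Y, a known partner of SREBPs), CACGTG (an E-box), CACCCCAC (a core of a sterol regulatory element) and TAGGTCA (a half-site recognised by ROR and REV-ERB receptors). Reverse matches appear as ATTGG and TGACCTA. For Arntl, of 2 windows listed, the one holding more of these motifs is shown.
Cyp51 (chr5:4104648-4104947, minus strand): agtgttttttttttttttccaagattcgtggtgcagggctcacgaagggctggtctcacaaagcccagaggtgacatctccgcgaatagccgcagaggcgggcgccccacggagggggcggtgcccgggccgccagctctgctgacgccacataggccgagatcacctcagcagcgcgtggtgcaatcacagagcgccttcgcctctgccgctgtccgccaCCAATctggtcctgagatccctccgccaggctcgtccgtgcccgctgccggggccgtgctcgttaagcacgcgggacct
Insig1 (chr5:28071162-28071461, plus strand): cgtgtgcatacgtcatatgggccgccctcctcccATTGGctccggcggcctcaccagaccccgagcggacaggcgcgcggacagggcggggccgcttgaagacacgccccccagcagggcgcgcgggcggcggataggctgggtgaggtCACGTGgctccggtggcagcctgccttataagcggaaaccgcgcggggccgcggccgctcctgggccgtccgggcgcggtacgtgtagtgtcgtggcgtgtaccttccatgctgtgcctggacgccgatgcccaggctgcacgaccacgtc
Arntl (chr7:113207261-113207560, plus strand): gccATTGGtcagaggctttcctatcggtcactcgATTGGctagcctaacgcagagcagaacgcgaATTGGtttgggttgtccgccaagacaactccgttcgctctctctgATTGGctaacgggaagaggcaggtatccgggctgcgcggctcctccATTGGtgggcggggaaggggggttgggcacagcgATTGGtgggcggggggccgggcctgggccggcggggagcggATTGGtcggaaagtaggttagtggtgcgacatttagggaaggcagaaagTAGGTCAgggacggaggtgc
Plin2 (chr4:86670010-86670309, minus strand): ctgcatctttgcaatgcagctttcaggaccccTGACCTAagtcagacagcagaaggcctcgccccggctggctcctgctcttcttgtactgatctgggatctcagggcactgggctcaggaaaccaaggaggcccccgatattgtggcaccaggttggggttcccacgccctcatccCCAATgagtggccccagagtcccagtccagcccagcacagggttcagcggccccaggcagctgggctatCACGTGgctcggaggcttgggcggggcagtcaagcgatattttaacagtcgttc
A CCAAT match was present in 13 of the 14 sterol synthesis genes that were higher in HDAC3 LKO and had a window, 92.9%, against 43% of the 9519 tested genes with one. CACCCCAC was present in 1 of the 14 and in 3.75% of all, and CACGTG in 3 of the 14 and in 11.9% of all. Over all called genes with a window the shares were closer to the background. CCAAT was in 48.8% of 817 higher and 39.6% of 593 lower genes, and TAGGTCA in 4.41% and 3.2%, against 2.49% of all. A match describes the letters and is not a bound site.

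The machinery that controls SREBP differed at the transcription factors and the INSIG proteins, with 5 of 10 tested genes higher in HDAC3 LKO, the deleted Scap among them, and none lower. Srebf1, which encodes SREBP1, was at 268, 392, 228 and 266 CPM in HDAC3 LKO and at 14.8, 16.6, 34.4 and 21.1 in SCAP LKO (log2 fold change 3.70, SE 0.35, adjusted p = 6.87e-07). Srebf2, which encodes SREBP2, was at 26, 25.6, 33.6 and 30.3 CPM against 15.3, 14.4, 14.6 and 20.4 (0.81, adjusted p = 0.000489). No library of either gene crossed to the other group. The Srebf2 call was lost relative to each line's own controls (0.58, adjusted p = 0.205).

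Insig1 and Insig2, which hold SCAP back in the endoplasmic reticulum, were both higher in HDAC3 LKO but from different starting points. Insig1, itself an SREBP target, was at 290, 392, 244 and 281 CPM in HDAC3 LKO and at 56.4, 44.9, 57.7 and 35 in SCAP LKO, with GFP controls at 238 to 478. Insig2 was at 174, 122, 182 and 224 CPM in HDAC3 LKO and at 50.4, 37.5, 53.8 and 58.5 in SCAP LKO, with GFP controls at 41.9 to 64. For Insig1 it was thus SCAP LKO that left the control range. For Insig2 it was HDAC3 LKO, while SCAP LKO lay within that range except for replicate 2, slightly below it at 37.5 CPM. The log2 fold changes were 2.64 and 1.80 (adjusted p = 2.16e-07 and 2.94e-05). The proteases Mbtps1 and Mbtps2, the ubiquitin ligase Rnf139 and Fbxw7, which marks nuclear SREBP for degradation, were not called, with log2 differences between -0.24 and 0.24.

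Fatty acid synthesis genes were also higher in HDAC3 LKO, and the sizes spanned a far wider range. Of 14 tested lipogenic genes 11 were higher and 1 lower, with a median log2 fold change of 1.21. Of 12 tested desaturases and elongases 9 were higher and none lower, with a median of 2.18.

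Scd1, the desaturase that makes oleate and palmitoleate, showed the highest log2 fold change of all genes chosen for size, 9.64 (SE 0.49, adjusted p = 1.83e-10). It was at 17000, 22000, 12000 and 22200 CPM in HDAC3 LKO and at 13.8, 24.5, 39.8 and 13 CPM in SCAP LKO. The GFP controls, at 2690, 3620 and 7670 CPM as lowest, median and highest, lay between the groups, and no control library reached either. Its relative Scd3, which shares sequence with it and is therefore uncertain, was at 3.11 to 4.27 CPM in HDAC3 LKO and at 0 in each SCAP LKO library. Against a floor of 3 counts over the SCAP LKO libraries together, Scd3 was at least 27.4-fold higher, and the median of the list stayed at 2.18 with it at that bound.

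Acacb, the acetyl-CoA carboxylase at the mitochondrial membrane, was at 262, 260, 292 and 302 CPM in HDAC3 LKO and at 6.05, 5.98, 6.67 and 13.6 in SCAP LKO. As for Scd1, the controls (28.5 to 95.9 CPM) lay between the groups. The log2 fold change was 5.04 (SE 0.36, adjusted p = 1.58e-08), where HDAC3 LKO over GFP gave 1.99 (adjusted p = 4.32e-05) and SCAP LKO over GFP gave -3.05 (adjusted p = 7.76e-06). Elovl5 and Elovl6, elongases of polyunsaturated and of saturated fatty acids, had the same order, with log2 fold changes between knockouts of 3.57 and 2.68. Elovl5 was at 631, 607, 394 and 670 CPM in HDAC3 LKO against 47, 62.6, 35.8 and 50.3. Acss2, which activates acetate, was another gene with controls in between (2.18, with 0.94 above GFP on the HDAC3 side and -1.24 on the SCAP side).

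A second set of lipogenic genes lay near GFP in HDAC3 LKO and below it in SCAP LKO. Fasn, the fatty acid synthase, was at 1140, 1580, 908 and 1290 CPM against 66.6, 50.9, 89.4 and 75.9 (log2 fold change 4.11, SE 0.29, adjusted p = 1.38e-08), with GFP controls at 530 to 1270. HDAC3 LKO over GFP was 0.58 for Fasn and did not pass (adjusted p = 0.105). Acaca, the cytosolic carboxylase (1.68), Fads1, a desaturase of polyunsaturated fatty acids (2.85), Mid1ip1, an activator of acetyl-CoA carboxylase (1.89), and the citrate carrier Slc25a1 (0.64) had the same order. Fads2 (2.26) lay above GFP in HDAC3 LKO as well. Aacs, which activates acetoacetate, was at 91.5 to 144 CPM against 36.7 to 65 (1.16), with controls at 62.3 to 134, and was lost relative to each line's own controls (adjusted p = 0.269). Me1, a source of NADPH, departed from this order. It was at 56.2 to 115 CPM against 34.1 to 41.2 (1.26), with controls at 37.1 to 70.9, which SCAP LKO overlapped. HDAC3 LKO over GFP passed for Me1 (0.62, adjusted p = 0.0248). Thrsp, a regulator of lipogenesis, was at 848, 1310, 1010 and 952 CPM against 54.5, 23.4, 150 and 44.2 (3.90, adjusted p = 0.000818), and its controls spread from 190 to 1140.

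In a few members SCAP LKO lay near GFP and HDAC3 LKO lay above. Elovl3, an elongase of very long saturated chains, was at 107, 62.5, 133 and 149 CPM in HDAC3 LKO and at 20.6, 36.5, 29 and 19.9 in SCAP LKO, with GFP controls at 18.8 to 43.6 (log2 fold change 2.10, adjusted p = 2.66e-05). G6pdx, which supplies NADPH, followed (0.99, adjusted p = 0.00199). The 1 lower member was Nr1h3, which encodes the oxysterol receptor LXR alpha, at 81.3 to 93.8 CPM against 100 to 117 (-0.30, adjusted p = 0.0295). That call was lost without HDAC3 LKO replicate 1, 3 or 4 or SCAP LKO replicate 2 or 3 (adjusted p up to 0.0978). Mlxipl, which encodes the glucose-sensing factor ChREBP, missed the threshold (0.63, adjusted p = 0.0599), as did Pgd, where SCAP LKO replicate 4 was at 26.9 CPM and the other 3 at 11.1 to 12. Elovl4, Elovl7 and Scd4 were too low to be tested, and Fads3 was higher with overlapping libraries (0.81, adjusted p = 0.0072). Elovl2, Fads6 and Scd2 were not called (log2 differences -0.12, 0.01 and 0.05), and Elovl1 (0.50) was lost without HDAC3 LKO replicate 4 or SCAP LKO replicate 1 or 3. Relative to each line's own controls 7 lipogenic genes and 6 desaturases and elongases were called, where Thrsp (adjusted p = 0.0547), Acly (0.0632) and Elovl3 (0.117) were among those lost.

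**Figure D2:**
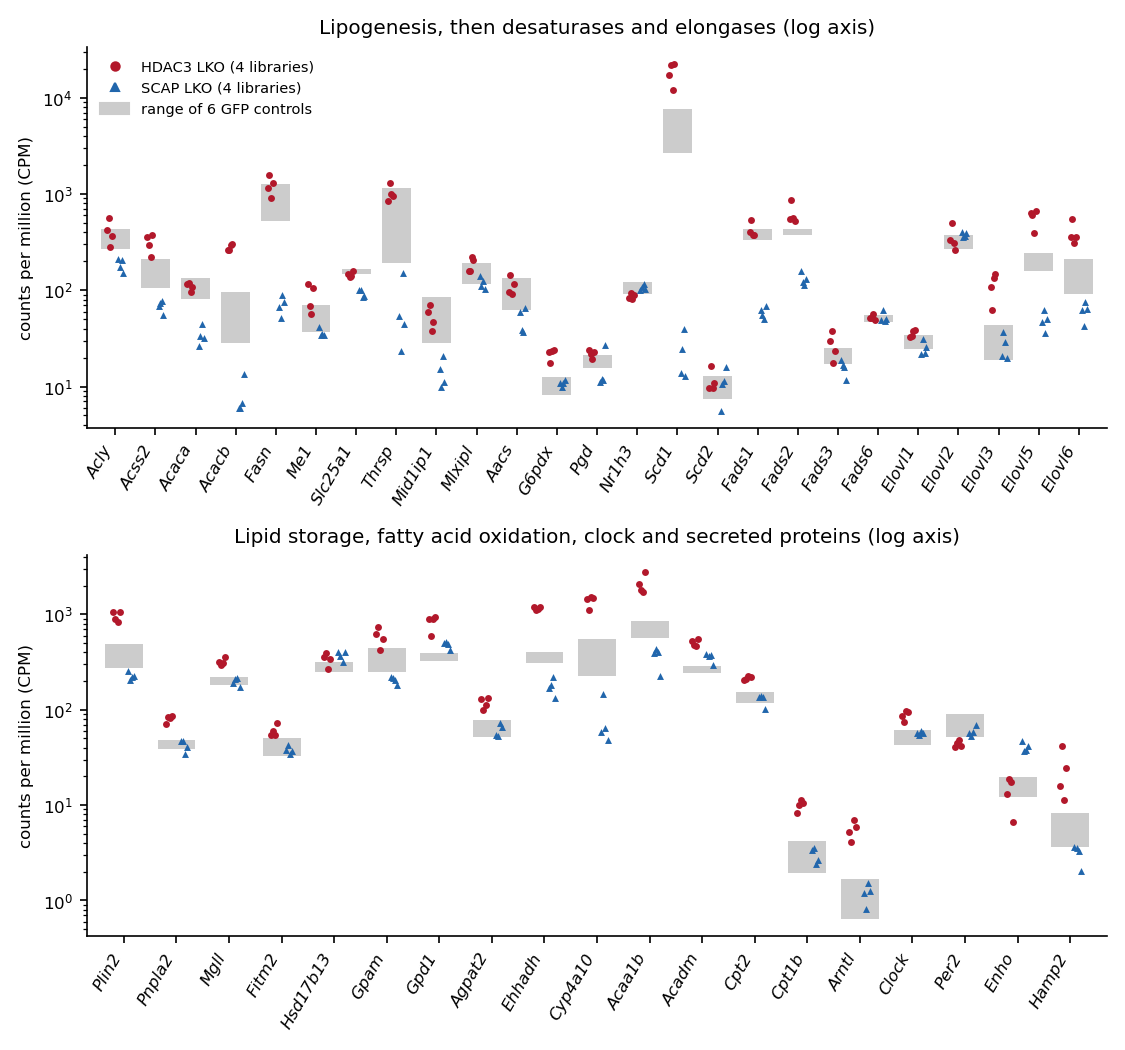
CPM per library on a log axis for lipogenic genes, desaturases and elongases (top, without Scd3, which is at 0 in SCAP LKO) and for lipid storage, oxidation, clock and secreted protein genes (bottom), with HDAC3 LKO as circles, SCAP LKO as triangles and the GFP range as grey boxes. For Scd1 and Acacb the boxes lie between the 2 groups, for Fasn the circles overlap the box, and for Elovl3 and Arntl the triangles overlap it.

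Genes of lipid storage were higher in HDAC3 LKO, and many of them lay above GFP there. Of 17 tested genes of lipid droplets and lipolysis 11 were higher and 1 lower, with a median log2 fold change of 0.70. In HDAC3 LKO 11 of the 17 lay above GFP, where 13.9% of all tested genes were called in either direction. In SCAP LKO none of the 17 was called against GFP, which is near the share of 1.19% over all tested genes. Plin2, the main droplet coat protein of hepatocytes, was at 1070, 900, 832 and 1070 CPM in HDAC3 LKO and at 253, 204, 218 and 226 in SCAP LKO, with GFP controls at 275 to 487. Both groups were outside the control range, on opposite sides, although SCAP LKO over GFP did not pass (-0.71, adjusted p = 0.0767). Plin2 had a log2 fold change of 2.10 (SE 0.21, adjusted p = 1.07e-06).

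Pnpla2, the adipose triglyceride lipase, was at 71.3 to 86.9 CPM against 34.1 to 47.5 (log2 fold change 0.95, adjusted p = 6.66e-06). Mgll, the monoglyceride lipase (0.70), and Fitm2, which packages triglyceride into droplets (0.67), were also higher, whereas Hsd17b13, a droplet protein, was not called (-0.12, adjusted p = 0.591). Relative to each line's own controls 2 members were called, Plin2 and Pnpla2, and the list's median was 0.37. With single libraries left out, 7 to 10 members were higher. Of 13 glycerolipid synthesis genes 6 were higher, led by Gpam, which starts the pathway (427 to 742 CPM against 184 to 220, log2 fold change 1.51, adjusted p = 7.93e-06), and including Gpd1 (0.78) and Agpat2 (0.94). Dgat2, which makes triglyceride, was not called (0.13, adjusted p = 0.624).

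Fatty acid uptake and activation followed, with 10 of 14 tested genes higher and none lower. Dbi, the acyl-CoA binding protein, was at 586, 540, 480 and 567 CPM in HDAC3 LKO against 144, 174, 171 and 152 in SCAP LKO (log2 fold change 1.76, SE 0.10, adjusted p = 7.58e-10). Acsl3 (2.48) and Acsl5 (1.13), acyl-CoA synthetases, and the fatty acid binding protein Fabp5 (2.85) were higher too, and Slc27a2, a transporter, missed the threshold (0.54, adjusted p = 0.0598). With each line's own controls as the reference 4 of these genes were called.

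Peroxisomal and PPAR alpha target genes were higher in HDAC3 LKO in 16 of 22 cases, with none lower and a median log2 fold change of 1.00. Ehhadh, the bifunctional enzyme of peroxisomal oxidation, was at 1200, 1110, 1140 and 1210 CPM in HDAC3 LKO and at 171, 183, 218 and 133 in SCAP LKO. The GFP controls, at 306 to 408 CPM, lay between the groups without overlap. Its log2 fold change was 2.73 (SE 0.16, adjusted p = 1.41e-09), with 1.68 above GFP in HDAC3 LKO and -1.04 in SCAP LKO. Acaa1b, a peroxisomal thiolase (2.51), and Cyp4a10, an omega-hydroxylase (4.15), had controls in between as well. Cyp4a10 was at 1440, 1120, 1530 and 1500 CPM against 58.4, 147, 63.8 and 47.9, and it belongs to a family that can share reads. Crot was not called (0.19, adjusted p = 0.49). Relative to each line's own controls 9 of the 22 were called, Ehhadh, Acaa1b and Cyp4a10 among them.

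Of 18 mitochondrial oxidation genes 6 were higher, none was lower, and the median was 0.27. Acadm (log2 fold change 0.51), Cpt2 (0.74) and Eci1 (0.60) were among the 6, as was Cpt1b (1.77), a palmitoyltransferase best known from muscle. Acaa2 was not called (0.02, adjusted p = 0.948). None of the 6 was called relative to each line's own controls. Of 4 ketogenesis genes 1 was called.

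Among the 16 tested genes of the NCoR complex and the deacetylases, 3 were higher in HDAC3 LKO and 1, Hdac3 itself, was lower. Tbl1xr1, a core subunit, was at 185, 149, 181 and 182 CPM in HDAC3 LKO and at 74.8, 65.3, 68.9 and 65.5 in SCAP LKO (log2 fold change 1.34, SE 0.09, adjusted p = 1.26e-08). Its relative Tbl1x (0.49) and the class IIa deacetylase Hdac5 (0.93) were higher as well. The scaffold Ncor1 was not called (0.00, adjusted p = 0.993), nor was the subunit Gps2 (0.13), nor were Hdac1 (-0.40), Hdac2 (-0.28) and Hdac8 (0.06), the other class I deacetylases. Hdac4, Hdac6, Hdac7, Hdac9, Hdac10 and Hdac11 were not called either, with log2 differences from -0.38 to 0.32. All 4 calls of this list held relative to each line's own controls.

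The clock list held 18 tested genes, 2 of them higher in HDAC3 LKO and none lower, with a median of -0.08. That count is near the share over all tested genes, of which 8.52% were higher and 6.15% lower. Arntl, which encodes the activator BMAL1 and is a classical target of REV-ERB, was at 5.22, 4.13, 7.05 and 5.9 CPM in HDAC3 LKO and at 1.21, 0.816, 1.54 and 1.27 in SCAP LKO. SCAP LKO lay within the control range of 0.639 to 1.66 CPM, and HDAC3 LKO lay above it. The log2 fold change was 2.10 (SE 0.29, adjusted p = 5.28e-05). Its window above, picked from 2 as the one holding more of the motifs, carries TAGGTCA, and binding there was not tested. Clock, the partner of BMAL1, was at 75.2 to 97.3 CPM against 54.7 to 59.7 (0.62, adjusted p = 0.00143). Per2, a repressor in the loop, did not pass (-0.44, adjusted p = 0.0735). Neither call held relative to each line's own controls (Arntl 1.53, adjusted p = 0.259, and Clock 0.68, adjusted p = 0.091).

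**Figure D3:**
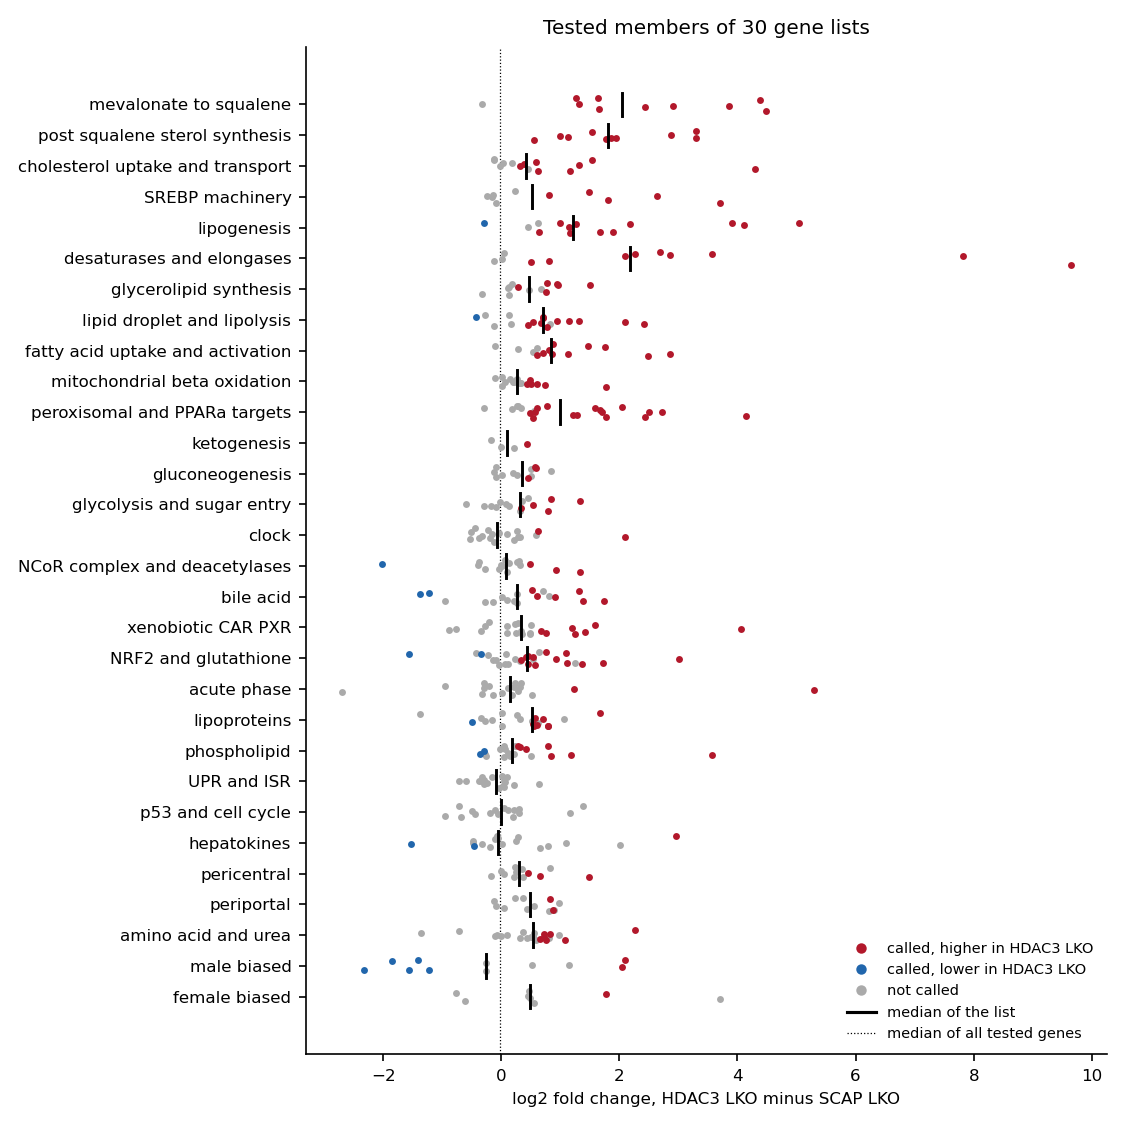
Log2 fold change of HDAC3 LKO over SCAP LKO for each tested member of 30 gene lists, coloured by call, with the median of each list as a bar and that of all tested genes (-0.02) as a dotted line. The sterol, desaturase and lipogenesis lists lie furthest to the right, with medians of 1.21 to 2.18. The stress response and cell cycle lists hold no called gene, where 14.7% of all tested genes were called. Among the male biased genes more were lower (5) than higher (2).

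Glutathione genes were called in both directions. Of 28 tested NRF2 and glutathione genes, HDAC3 LKO exceeded SCAP LKO in 13 and lay under it in 2. The theta class transferases Gstt1, Gstt2 and Gstt3 were higher, with log2 fold changes of 1.72, 1.11 and 3.01. Gstt3 was at 125, 129, 169 and 191 CPM against 18.6, 19.6, 23.1 and 14.6. Gstp1, the pi class transferase, went the other way, at 502, 419, 491 and 414 CPM against 1350, 1420, 1520 and 1090 (-1.56, SE 0.16, adjusted p = 2.08e-06), and Gstm1 was not called (-0.14). Members of these families can share reads, so single values are uncertain. In the list 5 genes were higher and 1, Gstp1, was lower relative to each line's own controls.

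Bile acid, phospholipid and lipoprotein genes were mostly higher where they were called. Of 18 bile acid genes 6 were higher and 2 lower, including Cyp27a1, which opens the acidic pathway of bile acid synthesis (641 to 829 CPM against 229 to 297, log2 fold change 1.38), and Abcb11, the bile salt export pump (0.91), while Slco1a1, an uptake transporter, was lower (-1.22). Of 20 phospholipid genes 7 were higher and 2 lower, of which at most 1 lower call held with single libraries left out. Lpcat3, which puts polyunsaturated chains into phospholipids (1.18), and Pcyt2, of ethanolamine phospholipid synthesis (0.84), were among the higher ones, as was Mfsd2a, a lysophospholipid transporter, at 45.8, 115, 28.2 and 74.5 CPM against 9.2, 4.62, 3.85 and 5.47 (3.57, adjusted p = 0.000327). Of 20 lipoprotein genes 8 were higher and 1 lower, with the phospholipid transfer protein Pltp at 1.68 and Apom, a carrier of sphingosine phosphate, at -0.49. The comparison relative to each line's own controls called 2 bile acid, 4 phospholipid and 1 lipoprotein gene, all higher, and Abcb11, Slco1a1 and Apom were lost (adjusted p = 0.133, 0.0848 and 0.383). In cholesterol uptake and transport 8 of 14 were higher (5 to 8 with single libraries left out) and none lower, Stard4, a sterol carrier (1.53), and the lysosomal lipase Lipa (1.17) among them, and 4 were called relative to each line's own controls.

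Of 15 glycolysis genes 5 were higher, with Eno1 at 0.85 (adjusted p = 3.36e-06) and Pfkfb1 at 1.34, and of 12 gluconeogenesis genes 3 were higher (1 or 2 with single libraries left out), with the pyruvate carboxylase Pcx at 0.59 and Pck1 not called (-0.09, adjusted p = 0.807). Of 22 amino acid and urea cycle genes 7 were higher, among them the methionine cycle enzymes Gnmt (log2 fold change 1.08), Cbs (0.72) and Bhmt (2.26, at 615 to 1070 CPM against 132 to 272, with controls spread from 97.7 to 1180). With each line's own controls as the reference 1 glycolysis gene was called, and no gluconeogenesis or amino acid gene. Of 22 xenobiotic genes 7 were higher, with Ugt1a1, which conjugates bilirubin, at 0.68. Of 12 pericentral genes 3 were higher, among them Oat, the ornithine aminotransferase (1.48). Of 12 periportal genes 2 were higher, neither of which held without HDAC3 LKO replicate 2 or SCAP LKO replicate 2, 3 or 4. No pericentral or periportal gene was called relative to each line's own controls (Oat adjusted p = 0.0515). Over all tested genes 8.52% were higher, and counts of 2 or 3 in lists this short are too small to be set apart from that share.

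None of 18 genes of the unfolded protein and integrated stress responses was called by edgeR's quasi-likelihood test, nor was any of 16 genes of p53 and the cell cycle. At an unadjusted p under 0.05 there were 3 and 4, DESeq2 called 0 and 1, and limma called 3 and 2. Over all tested genes 14.7% were called, and at that share few calls would fall in lists this short. Ddit3, which encodes CHOP, was at 6.56 to 8.92 CPM in HDAC3 LKO and 9.25 to 15.8 in SCAP LKO (log2 difference -0.60, adjusted p = 0.0763), and Cdkn1a, which encodes p21, at 5.86 to 13.5 and 2.31 to 5.35 (1.38, adjusted p = 0.0649). In neither gene did the groups overlap, but the spread within them was wide.

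Acute phase genes were called in 2 of 18 cases, Orm1 and Orm3, which is near the share of 14.7% over all tested genes. Neither call held relative to each line's own controls (adjusted p = 0.384 and 0.362). Orm1, an acute phase glycoprotein, was at 508 to 755 CPM in HDAC3 LKO and at 117, 183, 191 and 518 in SCAP LKO (log2 fold change 1.24, adjusted p = 0.0107). Orm3 was at 5.83, 3.6, 34 and 21.6 CPM against 0, 0, 0.257 and 0.891 (5.29, adjusted p = 0.00074), and the Orm genes are near-identical, so their values are uncertain. SCAP LKO replicate 4 stood apart here. It held 43.3 CPM of Lcn2, a marker of acute inflammation, against 2.42 to 3.21 in the other 3, and 6560 CPM of the haem carrier Hpx against 3060 to 3350. It was also the highest of the SCAP LKO libraries in Srebf2 and Acacb, and its part in those results is given by the values without it, which remained called (largest adjusted p over all single libraries left out 0.0034 for Srebf2 and 4.62e-07 for Acacb).

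Genes lower in HDAC3 LKO than in SCAP LKO were spread over the lists, with the most in the male-biased one. Of 11 tested male-biased genes 5 were lower and 2 higher, and all livers expressed the Y-linked gene Ddx3y (111 to 140 CPM in the 8 libraries) with Xist at most at 0.484 CPM. Hsd3b5, a steroid dehydrogenase of male liver, was at 46.8, 20.4, 65.5 and 14.2 CPM against 158, 178, 228 and 172 (log2 fold change -2.33, adjusted p = 0.0107). The urinary protein gene Mup20, whose relatives share reads, was at 3370, 1200, 2620 and 2300 CPM against 8150, 6110, 9810 and 10100 (-1.85, adjusted p = 0.000202), with controls at 2990 to 6030, below every SCAP LKO library. The 2 higher members were Elovl3 and Cyp4a12b (2.04). Relative to each line's own controls 2 members were lower, Gstp1 and Mup20 (adjusted p = 0.00153 and 0.0221), and none was higher, while Hsd3b5 (-2.44, adjusted p = 0.255), Elovl3 and Cyp4a12b (adjusted p = 0.117 and 0.0596) were lost. Of 8 tested female-biased genes 1, Acot3, was called (1.77, adjusted p = 0.0267), and it was lost without some single libraries (adjusted p up to 0.083).

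Among the genes chosen for the size of their difference, Nox4, an NADPH oxidase that makes hydrogen peroxide, was at 14.2, 9.59, 10.8 and 13.2 CPM in HDAC3 LKO and at 55.2, 55.2, 54.4 and 41.2 in SCAP LKO. SCAP LKO lay at the level of the controls (43.7 to 58.1 CPM). The log2 fold change was -2.10 (SE 0.22, adjusted p = 2.05e-06). Capn3, a calpain known from muscle (-2.61), Dact1, a modulator of Wnt signalling (-2.23), and Cspg5 (-3.23) had SCAP LKO libraries near or above the control median and HDAC3 LKO libraries below every control. Pcp4l1 (-2.91) had that order too, at 1.63 to 2.92 CPM against 10.2 to 25.3. Serpine2 (-2.16), Zfp9 (-2.08) and Dsg1c (-2.07) completed the group at low counts, and Dsg1c was lost without HDAC3 LKO replicate 1 or SCAP LKO replicate 1 (adjusted p = 0.0508 and 0.0524). Relative to each line's own controls Cspg5, Pcp4l1, Serpine2 and Dsg1c were lost (adjusted p = 0.112, 0.0595, 0.0699 and 0.496). Nox4, Capn3, Dact1 and Zfp9 kept their calls there.

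A different order was found for Dnaic1, a dynein chain of cilia, and for Enho, which encodes the secreted peptide adropin: most HDAC3 LKO libraries lay at the control level and SCAP LKO above. Dnaic1 was at 0.364, 0.799, 0.415 and 0.407 CPM against 2.66, 4.08, 4.62 and 4.96 (log2 fold change -3.00, adjusted p = 0.000398), with controls at 0.213 to 0.681. Enho was at 13.1, 18.8, 17.4 and 6.71 CPM against 46.5, 36.7, 38.2 and 41.5, with controls at 12.3 to 19.8, so that HDAC3 LKO replicate 4 lay below them (-1.52, SE 0.21, adjusted p = 6.69e-05). The Enho difference also held relative to each line's own controls (-1.86, adjusted p = 0.0112), and that of Dnaic1 did not (-3.44, adjusted p = 0.128). Of 17 tested hepatokine genes Enho and Lect2 (-0.46) were lower and Hamp2, of the hepcidin family, was higher, at 15.7, 42.2, 11.2 and 24.6 CPM against 3.63, 3.54, 3.34 and 2.04 (2.96, adjusted p = 2.14e-05). Alas2, the erythroid haem synthesis enzyme, was lower (-0.98), while the 4 tested globin genes were not called.

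**Figure D4:**
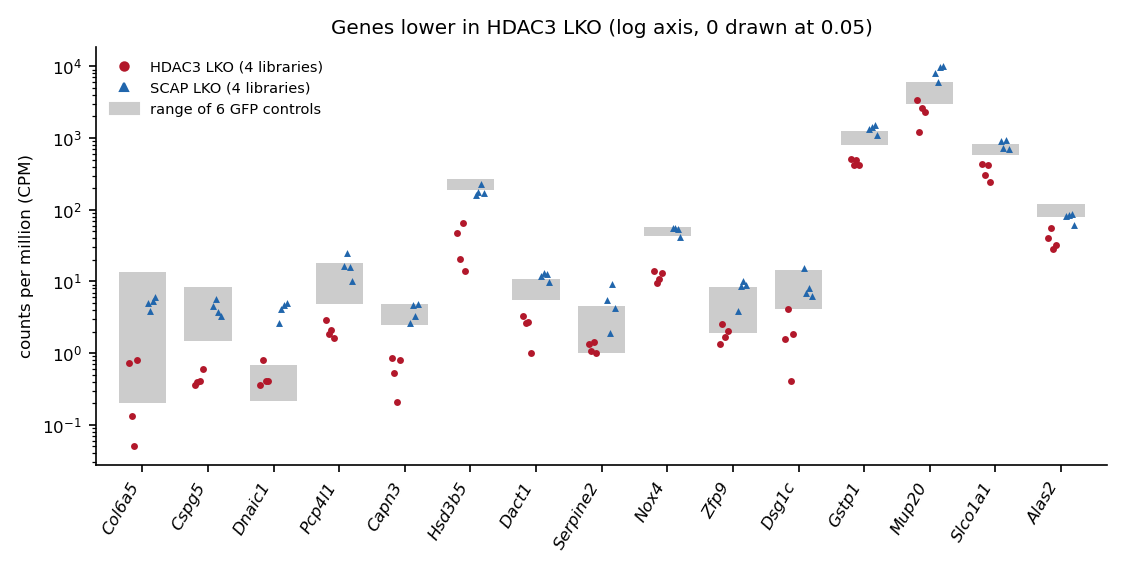
CPM per library on a log axis, with 0 drawn at 0.05, for genes lower in HDAC3 LKO than in SCAP LKO, with HDAC3 LKO as circles, SCAP LKO as triangles and the range of the 6 GFP controls as grey boxes. For Nox4, Capn3 and Hsd3b5 the circles lie below the boxes and the triangles near them, whereas for Dnaic1 the triangles, at 2.66 to 4.96 CPM, lie above the box.

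Some of the largest differences between the knockouts were already present between control livers of the 2 lines, which had received no Cre. Between the 2 GFP libraries of the HDAC3-floxed line and the 2 of the SCAP-floxed line, 6 of 12009 genes were called, 0.05%. An unadjusted p under 0.05 was found for 544, fewer than the 1 in 20 that this threshold passes by chance. Those described here are Rpl29, Acpp, Col6a5, Glb1 and Rad54l2, and the ones beyond the naming rule were chosen after their values were seen. They lie on chromosome 9, the chromosome of Scap, at 20 to 92 tested genes from Scap in the order of the RefSeq annotation (GRCm38.p6). Glb1 was 20, Rad54l2 68, Rpl29 76, Col6a5 85 and Acpp 92 tested genes away.

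Rpl29, a ribosomal protein gene with many processed copies that can share reads, had a log2 fold change next to that of Scd1 among the genes chosen for size (6.69, adjusted p = 0.00295). It was at 22.3, 26.9, 22.8 and 23.2 CPM in HDAC3 LKO and at 26.7 and 19.4 in the HDAC3-floxed GFP controls. It was at 0.242, 0.544, 0.257 and 0 CPM in SCAP LKO, at 0 and 0.758 in the SCAP-floxed GFP controls and at 0.681 and 0.704 in the HDAC3/SCAP-floxed GFP controls. The level thus followed the line, with or without Cre, and both lines that carry the floxed Scap allele were low. Relative to each line's own controls the difference was 0.89 (adjusted p = 0.737).

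Acpp, an acid phosphatase, had the same order, at 3.46 to 6.84 CPM in HDAC3 LKO and 0 to 0.242 in SCAP LKO. Col6a5, a collagen chain and the gene with the lowest log2 fold change (-3.55), had the reverse order, at 0 to 0.814 CPM in HDAC3 LKO, 0.481 and 0.199 in its controls, 3.81 to 6.11 in SCAP LKO and 4.9 and 10.8 in its controls. Relative to each line's own controls the sign of Acpp and of Col6a5 turned (-0.77 and 0.79, adjusted p = 0.897 and 0.73). Leaving out HDAC3 LKO replicate 3 or any single SCAP LKO library also ended the call of Acpp (adjusted p up to 0.0849), and leaving out any 1 of the 8 libraries ended that of Col6a5 (up to 0.1). The fit pools the GFP controls of the lines, which differ by line in these genes and enter its estimate of spread. In the fit of the 8 knockout libraries alone both calls were kept.

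Within 100 tested genes of Scap on either side, 42 of 189 genes were called between the knockouts, 22.2%, against 14.6% of the other mapped genes. In the same stretch 16 genes had an unadjusted p under 0.01 between the control lines, 8.47%, against 0.793% elsewhere. Around Hdac3, on chromosome 18, 25 of 200 genes were called between the knockouts, 12.5%, and none between the control lines, where 5 of the 200 had an unadjusted p under 0.01, 2.5%, against 0.887% of the other mapped genes. For genes near Scap, deletion of Scap and the difference between the lines cannot be told apart without the line's own controls. Scap itself was called relative to those controls (1.22, adjusted p = 0.000441).

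**Figure D5:**
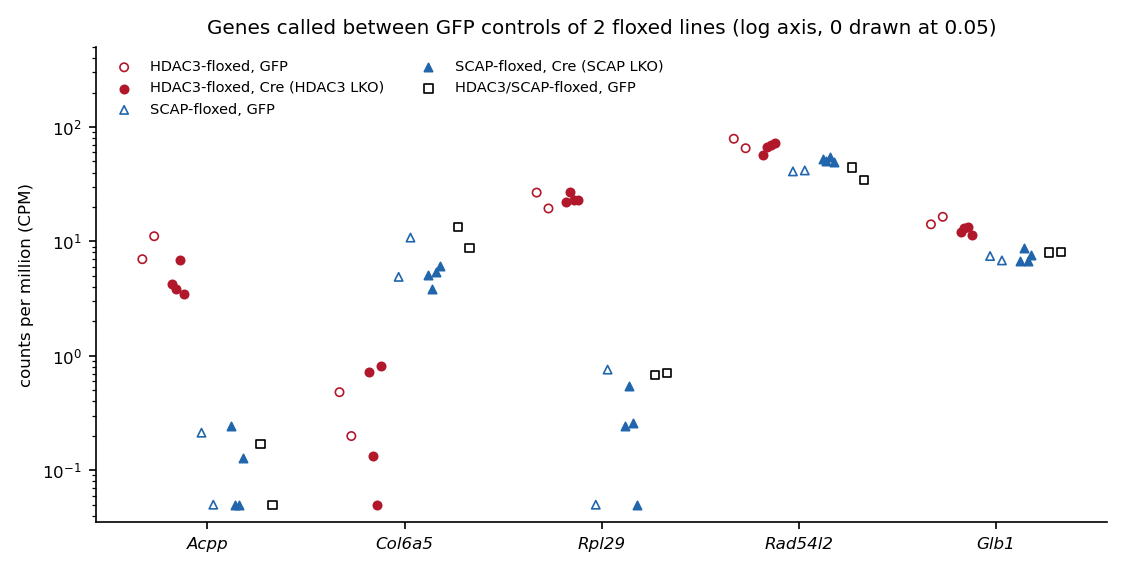
CPM per library on a log axis, with 0 drawn at 0.05, for 5 of the genes called between GFP controls of the HDAC3-floxed and SCAP-floxed lines, with open symbols for GFP and filled ones for Cre, and squares for the HDAC3/SCAP-floxed controls. Open and filled symbols of one line lie together, and the squares lie with the SCAP-floxed line, as for Rpl29 at 0.681 and 0.704 CPM.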

How the data were processed

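Liver RNA was sequenced from TruSeq v2 libraries, a kit that does not mark strand, per the labels' protocols, and the submitters' processing notes name edgeR and mm9. For the RNA aligner and counter, the sources used here name none. The deposited table holds whole-number counts per transcript, as the values show. The authors marked 1 transcript per gene in it, and these 22869 of 28644 were used. The table's other 17 per-sample columns stayed unused. HDAC3 LKO and SCAP LKO columns were tied to samples by name, and other columns to their group.

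Counts of 17 libraries in 4 arms (6 GFP controls, 4 HDAC3 LKO, 4 SCAP LKO, 3 Double LKO) entered 1 edgeR 4.0.16 quasi-likelihood fit in R 4.3.3, with TMM scaling and filterByExpr, which 12009 genes passed. Arms share 1 estimate of spread. The contrast was HDAC3 LKO minus SCAP LKO, and a gene was called at an adjusted p under 0.05 (Benjamini-Hochberg, over all tested genes). The SE is the absolute log2 fold change over the square root of F. CPM are TMM-scaled, not per length, so levels are not compared between genes. The scripts were tested on simulated counts. Alternatives were DESeq2 1.42.0, limma 3.58.1 with quality weights, other libraries, filters, transcripts and scalings, a replicate block, each line's own controls and 1 library left out.

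The comparison, the 41 gene lists and the tests were chosen with earlier results of these data known. Lists held 559 genes, of which 501 were tested. Named were both targeted genes, the top 12 and bottom 12 called genes by log2 fold change (mean log2 CPM of at least 1, no overlap of libraries, no provisional name), all members of 6 lists, and of other lists the 4 with the lowest p and the most highly expressed one not called. Some genes the rule names are not reported here. Peak lists (mm9) were not used, since gene positions on that build are not used here. Promoter windows were matched by symbol or synonym for 9519 genes.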

Additional observations from a re-analysis of the deposited data

Results flagged for a closer look

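For 221 named genes, each group of 4 libraries was checked for 1 library whose gap to its nearest neighbour exceeded Dixon's critical share of the group's range (95% level). This picked out 37 of 442 groups, where chance picks about 1 in 20. HDAC3 LKO replicate 2 accounted for 12 and SCAP LKO replicate 4 for 10. All values are CPM, each followed by the range of the other 3 libraries of its group.

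HDAC3 LKO replicate 2 was high in Col3a1 (131 against 85 to 91.5), Cyp2a4 (1210 against 10.4 to 92.1), Dnaic1 (0.799 against 0.364 to 0.415), Fads2 (865 against 528 to 564), Hba-a1 (55.8 against 28.4 to 32.6), Hba-a2 (55.8 against 28.4 to 32.6), Hdac9 (3.86 against 2.79 to 2.9) and Lyve1 (35.8 against 17 to 19.1). It was low in Cyp51 (125 against 180 to 189), Gpd1 (587 against 893 to 943), Hsd17b7 (53.3 against 80.7 to 85.2) and Tbl1xr1 (149 against 181 to 185).

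SCAP LKO replicate 4 was high in Acacb (13.6 against 5.98 to 6.67), Hpx (6560 against 3060 to 3350), Lcn2 (43.3 against 2.42 to 3.21), Lect2 (79.3 against 64.5 to 65.4), Pgd (26.9 against 11.1 to 12), Spp1 (147 against 38.1 to 41.6) and Srebf2 (20.4 against 14.4 to 15.3). It was low in Acadm (294 against 368 to 382), Cpt2 (103 against 135 to 139) and Nox4 (41.2 against 54.4 to 55.2).

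HDAC3 LKO replicate 1 was low in Itgam (0.972 against 1.83 to 2). HDAC3 LKO replicate 3 was high in Ldha (477 against 437 to 443). HDAC3 LKO replicate 3 was low in Acsl5 (339 against 501 to 528) and Serpina7 (144 against 196 to 205). HDAC3 LKO replicate 4 was high in Fdft1 (108 against 91.9 to 92.4). HDAC3 LKO replicate 4 was low in Apom (150 against 197 to 205) and Dhcr7 (23.4 against 27.5 to 28). SCAP LKO replicate 1 was high in Me1 (41.2 against 34.1 to 34.9) and Pcx (503 against 436 to 445). SCAP LKO replicate 1 was low in Cyp4a12b (16.2 against 23.4 to 24.8). SCAP LKO replicate 2 was high in Cyp4a10 (147 against 47.9 to 63.8) and Fads6 (61.8 against 47.9 to 49.8). SCAP LKO replicate 2 was low in Rnf139 (61.2 against 75.2 to 76.4). SCAP LKO replicate 3 was high in Mvk (6.16 against 4.12 to 4.35) and Shmt1 (173 against 132 to 139).

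The 2 alpha globin genes hold identical values in every library. The part of these single libraries in the gene lists was not tested beyond leaving each out in turn.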

How the results depend on the processing

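Across the 16 alternatives, the line-referenced comparison, in which each knockout is taken relative to the 2 GFP controls of its own floxed line, changed the counts most. It called 309 genes, 230 higher and 79 lower, and 205 past 2-fold, with 7 lipogenic, 2 lipid droplet and 9 peroxisomal and PPAR alpha target genes. It rests on 2 controls a line and so on a wider error. The log2 fold changes of Acpp and Col6a5 reversed there, to -0.77 and 0.79. With 1 library left out, the count of lower genes ran from 485 to 593 and that of higher genes from 776 to 910. The other settings gave 962 to 1330 higher and 575 to 1071 lower genes.

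Of 137 named called genes, 75 kept direction and call under every alternative. All 137 did so with the 8 libraries alone, DESeq2 size factors, the transcript with the highest count, the replicate block and DESeq2, whereas 3 were lost without a filter, 2 with limma, 59 in the line-referenced comparison, where 2 more reversed, and 5 to 10 with 1 library left out. The replicate block gave 1171 higher and 756 lower genes. Same-numbered libraries correlated at 0.0777, 0.0162, 0.108 and -0.0605 in their deviations from the group means, and differently numbered ones at -0.128 to 0.136. With so few libraries a group, these values cannot decide whether the numbers pair the samples. Hmgcs1, with at most 1.22 CPM in the 8 libraries, was not tested. The comparison with peak lists was not run.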
